A study of Homo sapiens with 18 samples.

Results

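The SLC25 genes encode the mitochondrial carriers, and their transcripts were followed through human osteosarcoma cells of 2 lines, their sorted tumor fractions and lung metastases. Members were taken by name, as every protein-coding gene whose symbol is SLC25A followed by a number. RefSeq lists 48 such genes. The arrays gave 45 of them a probe set annotated to that gene alone, and the others were not analysed here. Each gene was represented by its probe set of highest mean over the 18 arrays, a choice that uses the level of a gene and no difference between groups. Of the 45, 40 reached the median signal of the table, 5.36 on the log2 scale, on at least 3 arrays and were tested among 14418 genes. SLC25A2, SLC25A18, SLC25A21, SLC25A31 and SLC25A53 did not. Of the 40, SLC25A41, SLC25A47 and SLC25A48 passed through a few arrays of MNNG_High and the lung where they were high, with 2, 1 and 1 MNNG_High arrays beside both lung arrays, so differences that hold those groups are not independent of the filter for them.

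Mitochondrial carriers are small proteins of the inner mitochondrial membrane that exchange nucleotides, phosphate, keto acids, amino acids, cofactors and metal ions between the matrix and the cytosol. They share a fold of repeated transmembrane helices and are built into the membrane by the TOM and TIM22 import machinery. The ADP/ATP carriers export the ATP made by oxidative phosphorylation, the aspartate/glutamate carriers belong to the malate-aspartate shuttle, and a few family members lie in other membranes, such as SLC25A46 in the outer mitochondrial membrane and SLC25A17 in peroxisomes.

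Both lines, MNNG/HOS (called MNNG here) and 143B, are established cell lines of human osteosarcoma that were grown as orthotopic bone tumors. PKH26 is a membrane dye that is diluted by cell division, and dye-retaining cells (High, called tumor-initiating cells in the series design) were sorted from dye-diluted cells (Low). The arrays were 3 of 143B_High, 5 of 143B_Low, 2 of MNNG_Lung, 4 of MNNG_High and 4 of MNNG_Low. Values below are listed within a group by tumor, from MNNG-1231 through MNNG-1232 and then MNNG-1233 to MNNG-1235, and from 143B-1251 to 143B-1255. A pair of the 143B_High arrays hold pools of 2 tumors each, and the MNNG_Lung arrays are from lung metastasis samples labelled 1233 and Mix. The tumor cells carried ZsGreen, a fluorescent label, in all groups. Each group comes from 1 transplanted line, p-values measure the spread between these arrays, and in bulk RNA fewer cells of a type and less RNA per cell cannot be told apart.

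The array set was uneven in ways that bear on each comparison. The interquartile range of the signal was 2.09 to 2.28 on the lung arrays, 2.76 to 3.18 in MNNG_High, 3.29 to 3.4 in MNNG_Low and 3.26 to 3.48 in 143B. The mean signal over the tested carriers was 6.74 to 6.76 on the lung arrays, 7.79 to 7.94 in MNNG_High, 8.03 to 8.09 in MNNG_Low, 7.88 to 8 in 143B_High and 7.94 to 8.06 in 143B_Low. Of 8 osteosarcoma and osteoblast markers, 6 or 7 had a group mean at or above 5.36 in each group, and their mean was 7.04 to 8.27 on the lung arrays against 8.8 to 10.15 on the bone tumor arrays. Date tags in the labels put all MNNG_High and MNNG_Lung arrays and MNNG-1231 Low under 1 tag. The other 3 MNNG_Low arrays were under another and all 143B arrays under 1 more, so line and tag cannot be told apart. In MNNG, dye fraction and tag largely coincide and are separated only by MNNG-1231 Low. The same holds for the lung arrays against MNNG_Low.

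**Figure D1:**
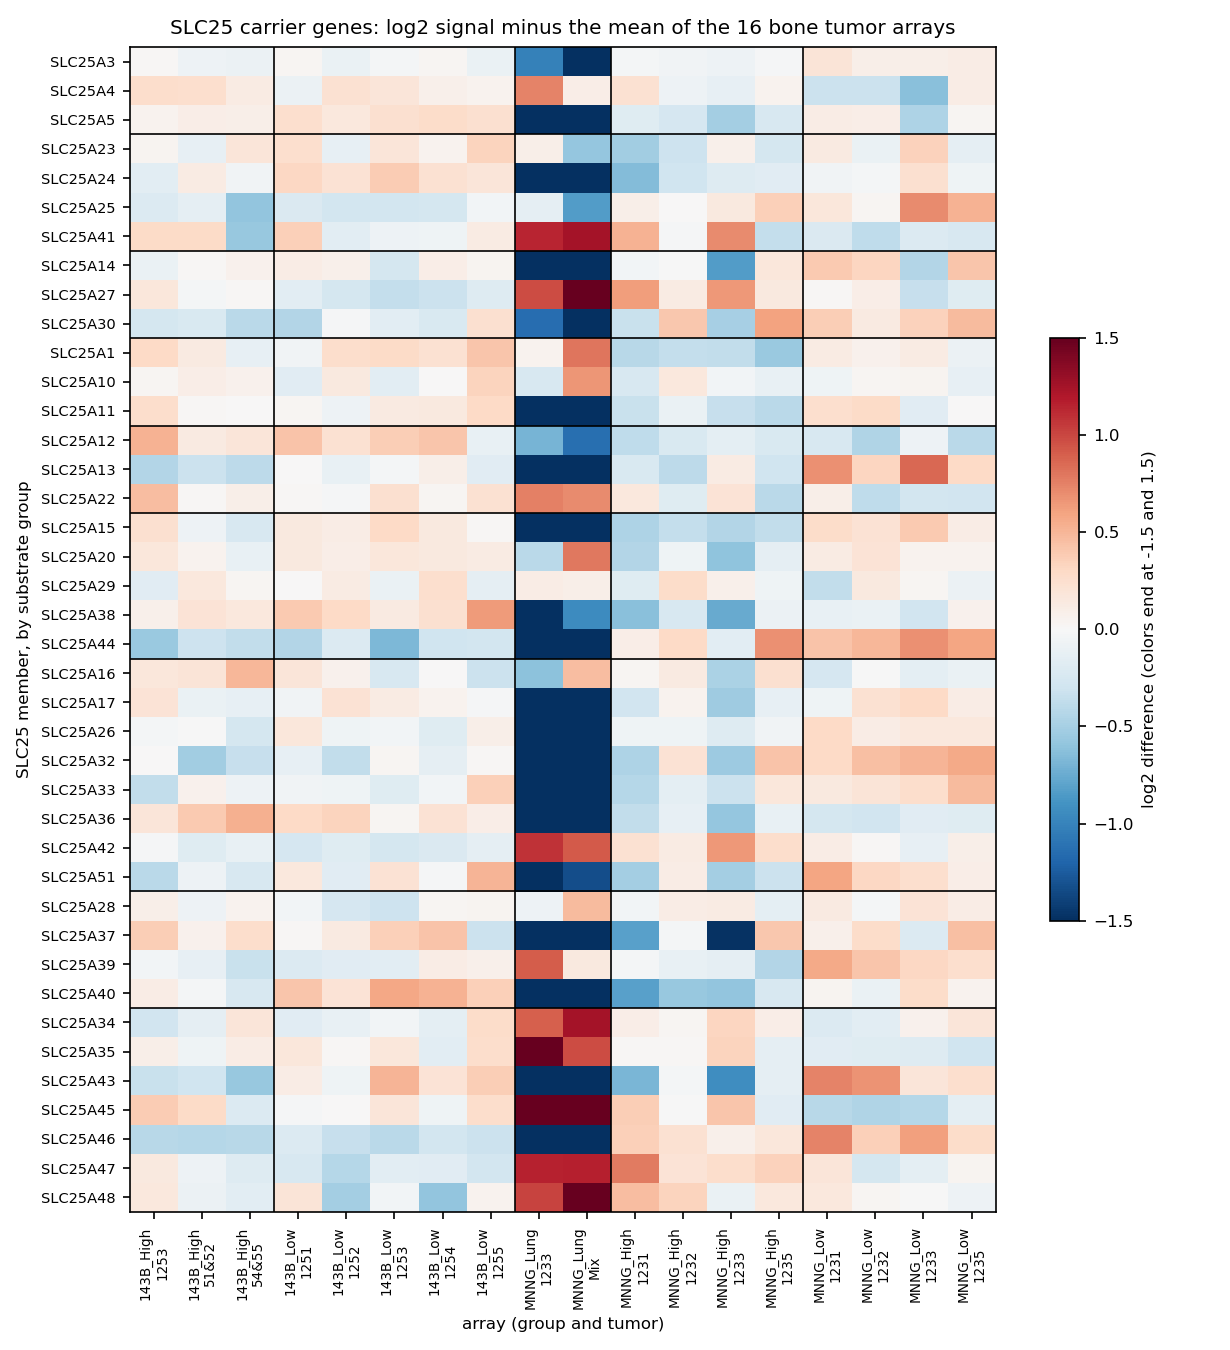
Each row is 1 of the 40 tested SLC25 genes, grouped by what the carrier transports, and each column is 1 array. Color gives the log2 signal minus the gene's mean over the 16 bone tumor arrays, with colors ending at -1.5 and 1.5. The lung columns stand apart from every other group, and differences among the bone tumor groups are small beside them.

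The first question was which carriers differ between dye-retaining and dye-diluted cells of MNNG bone tumors. In MNNG_High 8 carriers fell and 3 rose out of 40. That is 27.5% of the members, and 15.5% of all genes tested were called lower and 10.6% higher, 26.1% in all, so the share is near that of the whole array. The carriers that fell move aspartate and glutamate (SLC25A13), ornithine (SLC25A15), NAD (SLC25A51), glutathione (SLC25A39), citrate (SLC25A1) and 2-oxoglutarate (SLC25A11), with SLC25A40, a relative of SLC25A39, and SLC25A43, whose substrate is unsettled. The changes were small, from 1.31-fold to 1.88-fold lower and from 1.36-fold to 1.42-fold higher. The median difference was -0.28 over the members and -0.19 over all genes tested. The groups did not overlap for 14 of 40 members, 35%, and for 29.8% of all genes.

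SLC25A13, known as citrin, the aspartate/glutamate carrier best known in liver, had log2 signals of 9.22, 9.05, 9.57 and 9.15 in MNNG_High, against 10.13, 9.77, 10.31 and 9.75 in MNNG_Low. Every MNNG_High array lay under every MNNG_Low array. The difference was -0.74 ± 0.14 (SE of the limma fit), 1.67-fold lower, with adjusted p = 0.00461, and all 3 probe sets of the gene lay lower. Of the other carriers of these amino acids, SLC25A12, or aralar, the other aspartate/glutamate carrier, was at 0.05 ± 0.15 by its chosen probe set, while its second probe set was at -0.73. SLC25A22, a glutamate carrier, was at 0.15 ± 0.15, and neither passed the test.

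SLC25A15 exchanges ornithine and citrulline for the urea cycle and polyamine synthesis. It had 8.38, 8.49, 8.41 and 8.48 in MNNG_High and 9.12, 9.06, 9.24 and 8.96 in MNNG_Low. The groups were narrow and did not overlap. The difference was -0.66 ± 0.13, 1.58-fold lower (limma adjusted p = 0.00509), and both probe sets lay lower. Of the other amino acid and carnitine carriers, SLC25A20, which brings acylcarnitines to fatty acid oxidation, was at -0.42 ± 0.19, and SLC25A38, needed for glycine supply to heme synthesis, and SLC25A44, a carrier of branched-chain amino acids, were both at -0.32. None of these passed.

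The iron and glutathione carriers had all 4 members below 0, with 2 called. Below 0 lay 27 of the 40 members and 9139 of 14418 genes. SLC25A39, a carrier needed for mitochondrial glutathione, had 7.94, 7.85, 7.83 and 7.53 in MNNG_High against 8.53, 8.38, 8.28 and 8.22 in MNNG_Low, a difference of -0.57 ± 0.16 (limma adjusted p = 0.0183). SLC25A40 had 5.84, 6.09, 6.06 and 6.42 in MNNG_High against 6.69, 6.55, 6.93 and 6.71 in MNNG_Low, -0.62 ± 0.17 (limma adjusted p = 0.0193). Neither pair of groups overlapped. A second, dimmer probe set of SLC25A40 was at -0.04. SLC25A37, the mitochondrial iron importer mitoferrin-1 of erythroid cells, spread widely in MNNG_High, with 7.87, 8.66, 7.21 and 9.09, against 8.76, 8.96, 8.48 and 9.14 in MNNG_Low. Its difference of -0.63 ± 0.29 did not pass (limma adjusted p = 0.105).

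Among the carriers of tricarboxylic acid cycle intermediates, SLC25A1, which exports citrate for lipid synthesis, had 7.25, 7.31, 7.29 and 7.11 in MNNG_High against 7.79, 7.73, 7.79 and 7.57 in MNNG_Low. All MNNG_High arrays were lower, by -0.48 ± 0.15 in the mean (limma adjusted p = 0.0314). SLC25A11, the 2-oxoglutarate/malate carrier of the malate-aspartate shuttle, was at -0.39 ± 0.14 (adjusted p = 0.0453), and 1 MNNG_High array at 8.24 lay above the lowest MNNG_Low array at 8.17. SLC25A10, the dicarboxylate carrier, was at -0.03 ± 0.17.

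SLC25A43 showed the largest decrease, with 7.05, 7.7, 6.8 and 7.6 in MNNG_High against 8.48, 8.41, 7.91 and 7.99 in MNNG_Low. The groups did not overlap, and the difference was -0.91 ± 0.26 (limma adjusted p = 0.0206). SLC25A51, which brings NAD into mitochondria, had 6.34, 6.97, 6.34 and 6.53 in MNNG_High and 7.45, 7.17, 7.11 and 6.95 in MNNG_Low, where 1 array of each group crossed. It fell by 0.62 ± 0.21 on the log2 scale (limma adjusted p = 0.0369), and a second probe set was at -0.03. SLC25A52 is a near-identical copy of SLC25A51, and whether the probes tell them apart was not tested.

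The 3 carriers that rose in MNNG_High were dim. SLC25A45, a member whose role is unsettled, had 5.9, 5.52, 5.95 and 5.36 in MNNG_High against 5.12, 5.08, 5.1 and 5.39 in MNNG_Low (0.51 ± 0.16, limma adjusted p = 0.0299). SLC25A27, a brain uncoupling protein, was at 0.49 ± 0.16 and SLC25A47, known from liver, at 0.44 ± 0.14 (adjusted p = 0.0326 and 0.0320). A second, dimmer probe set of SLC25A45 was at -0.04. The MNNG_Low means of 5.17 for SLC25A45 and 4.74 for SLC25A47 lay under 5.36 and that of SLC25A27 was 5.39, so the sizes are uncertain. SLC25A47 reached 5.36 on MNNG-1231 High, at 5.57, and the lung arrays alone, and all MNNG_Low arrays lay at 4.52 to 4.97, so its passing of the filter is tied to its being high. The brightest other probe set of SLC25A27 went the other way, at -0.48.

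The tested carriers of ATP and phosphate did not pass the test in MNNG. SLC25A6, another ADP/ATP carrier, had no probe set annotated to it alone, and SLC25A31 was not tested. SLC25A4, the ADP/ATP carrier of heart and muscle, had 8.96, 8.65, 8.61 and 8.79 in MNNG_High against 8.41, 8.41, 8.1 and 8.84 in MNNG_Low, where MNNG-1235 Low reached into the MNNG_High range (0.31 ± 0.16, limma adjusted p = 0.141). With tumor as a block SLC25A4 was called higher (0.31, adjusted p = 0.0442), and after a second quantile normalization too (0.59, adjusted p = 0.0336). SLC25A5, the ADP/ATP carrier of dividing cells, had 12.7, 12.63, 12.37 and 12.64 in MNNG_High against 13, 12.98, 12.42 and 12.92 in MNNG_Low, lower in High in each of the 4 tumors though the groups overlapped (-0.25 ± 0.15). SLC25A3, the phosphate carrier, had 13.29, 13.26, 13.24 and 13.3 in MNNG_High against 13.51, 13.41, 13.41 and 13.43 in MNNG_Low with no overlap (-0.17 ± 0.11). With tumor as a block neither was called, and with array weights SLC25A5 was called lower (-0.27, adjusted p = 0.0344). Of the ATP-Mg/phosphate carriers, SLC25A24 came nearest to the threshold (-0.35 ± 0.13, adjusted p = 0.0507). Of the cofactor carriers SLC25A17, SLC25A32 and SLC25A33, for coenzyme A in peroxisomes, folate and pyrimidine nucleotides, were at -0.37, -0.55 and -0.45. SLC25A16, linked to coenzyme A, was at 0.11 by its chosen probe set, of a type that can match related sequences, while 3 dimmer probe sets lay between -0.89 and -0.12.

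**Figure D2:**
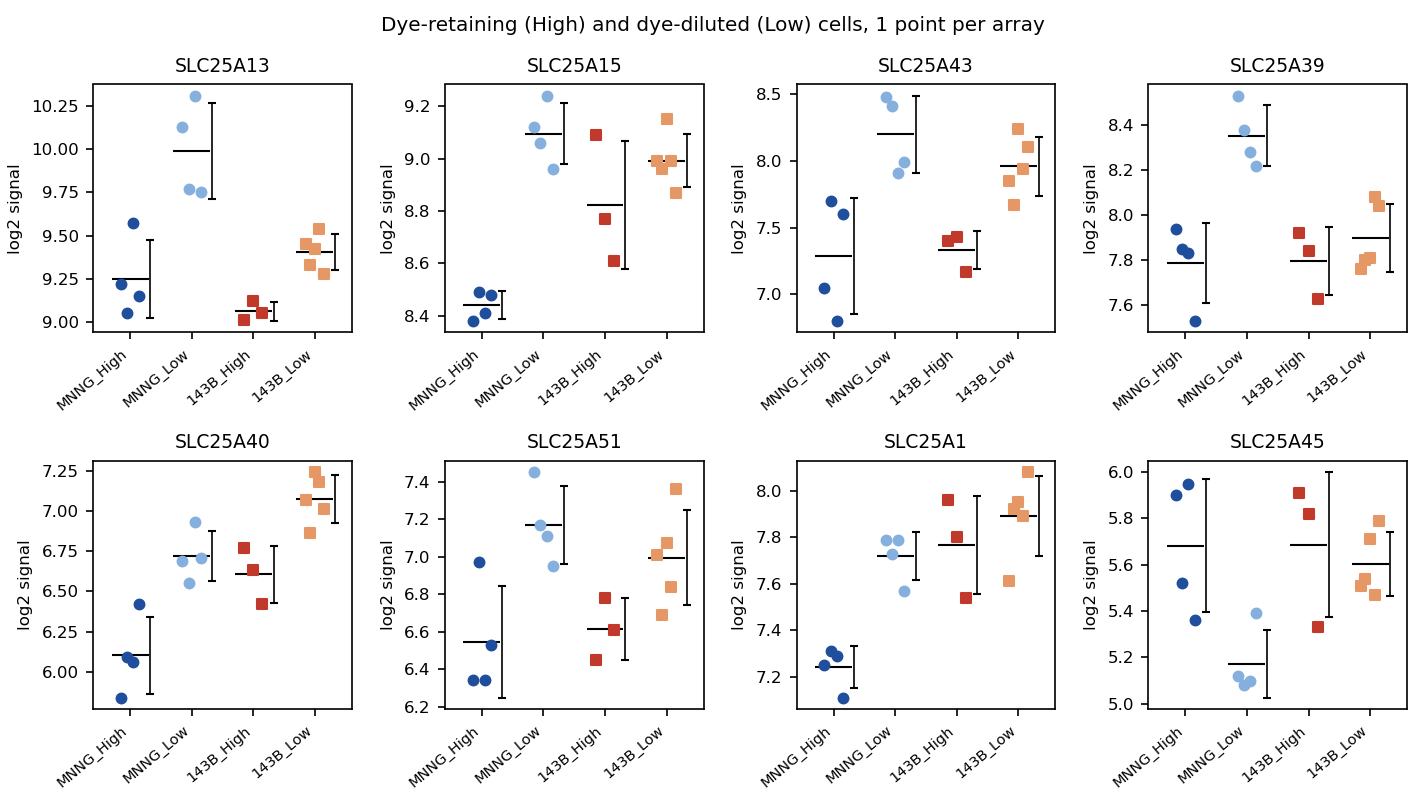
Log2 signal of 8 carriers called in MNNG_High against MNNG_Low, with 1 point per array, the group mean as a line and the SD as a bar, beside the same genes in 143B. SLC25A13 and SLC25A15 separate in MNNG with no overlap, while SLC25A51 crosses by 1 array and SLC25A45 is higher in MNNG_High with 1 array of MNNG_Low inside its range.

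These MNNG calls depend on few arrays, on the scale and on whether the date tag is in the fit. Leaving out 1 array gave 3 called members without MNNG-1231 High and 17 without MNNG-1235 High. It gave 5 without MNNG-1233 High or without MNNG-1231 Low, MNNG-1232 Low or MNNG-1233 Low. Over all 14418 genes the calls went from 3761 in the main fit to 1376 without MNNG-1231 High and 5939 without MNNG-1235 High. SLC25A13 and SLC25A15 were called in each of these fits, with differences from -0.85 to -0.64 and from -0.70 to -0.61, and the other 9 were lost in at least 1. Without MNNG-1231 High and MNNG-1233 High, the bone tumor arrays of narrowest spread, 1 member was called, SLC25A13 (-0.89, limma adjusted p = 0.0246). That fit called 56 of 14418 genes. A second quantile normalization called 1033 of 14300 genes. It brought the median of all genes to 0.01 and that of the members to -0.02, with SLC25A4 called higher and SLC25A40 lower. The other 10 members called before lost their calls there, with SLC25A13 at -0.44 (adjusted p = 0.115), SLC25A15 at -0.31 (0.240) and the 3 that rose at 0.31 to 0.44 (0.108 to 0.206). Centring each array on its median gave 0 higher and 14 lower, beside 4700 of 14300 genes called. A fit that included the date tag called 0 members and 3 of 14418 genes. SLC25A13 was at -0.89 and SLC25A15 at -0.68 there and among arrays of 1 tag, where only MNNG-1231 Low remains of MNNG_Low. Tumor as a block, without the lung arrays, gave 5 higher and 19 lower, and the lung arrays left out gave 4 and 15. Of all 14418 genes, 7849 and 6407 were called in the block fit and without the lung arrays. The directions of the 11 called members were the same in all these fits.

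Other measures moved with the dye fraction in MNNG. The mean of 8 macrophage and myeloid markers was 5.9 to 6.4 in MNNG_High against 5.17 to 5.38 in MNNG_Low, with 6 and 4 of them at or above 5.36, and CD163 and PTPRC under it in both groups. The mean of 4 erythroid markers was 5.81 to 6.36 in MNNG_High against 5.63 to 5.81 in MNNG_Low. The mean of 5 lung epithelium markers was 5.93 to 6.39 in MNNG_High against 5.68 to 5.82 in MNNG_Low, with 4 at or above 5.36 in both and SCGB1A1 under it. The mean of 7 skeletal muscle markers was 4.92 to 5.26 against 4.62 to 4.77, with 3 and 2 at or above 5.36, that of 5 endothelial markers 4.77 to 5.12 against 4.43 to 4.7, with 2 and 1, and that of 4 liver markers 5.57 to 6.21 against 5.51 to 5.85, with 2 in both. Apart from erythroid and liver markers, these ranges did not overlap. The GAPDH 3' minus 5' signal, a measure of RNA quality, was 0.5 to 0.75 in MNNG_High and 0.34 to 0.41 in MNNG_Low. With it as a covariate 6 members were called, beside 1547 of 14418 genes. SLC25A13 and SLC25A15 were among the 6, at -0.74 and -0.52. The part of the other measures in these differences was not tested.

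In 143B no carrier passed the test between 143B_High and 143B_Low, where 0.00694% of all genes, a single gene, was called. At an unadjusted p under 0.05 there were 4 of 40, SLC25A40, SLC25A13, SLC25A43 and SLC25A24, beside 745 of 14418 genes. SLC25A13 had 9.01, 9.12 and 9.05 in 143B_High against 9.45, 9.33, 9.42, 9.54 and 9.28 in 143B_Low, a difference of -0.35 ± 0.15 with an interval of -0.67 to -0.03 (limma adjusted p = 0.905). In this and the following lists the first 143B_High value is tumor 143B-1253 and the others are the pools. SLC25A43 had 7.4, 7.43 and 7.17 in 143B_High against 7.85, 7.67, 8.24, 7.94 and 8.1 in 143B_Low, at -0.62 ± 0.27, and SLC25A40 had 6.77, 6.63 and 6.42 against 7.07, 6.86, 7.24, 7.18 and 7.01, at -0.47 ± 0.18. For SLC25A13, SLC25A43, SLC25A40 and SLC25A24 (-0.29 ± 0.13) all 143B_High arrays lay under all 143B_Low arrays. Such a gap occurred for 7 of 40 members, 17.5%, and for 11.9% of all genes. With array weights in the fit 2 members were called lower, beside 201 of 14418 genes called.

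None of the other carriers called in MNNG passed in 143B. SLC25A51 was at -0.38 ± 0.21, SLC25A27 at 0.31 and SLC25A47 at 0.22. SLC25A15 was at -0.17 ± 0.14, SLC25A39 at -0.10 ± 0.16, SLC25A1 at -0.13 ± 0.16, SLC25A11 at -0.02 ± 0.14 and SLC25A45 at 0.08. SLC25A3, SLC25A4 and SLC25A5 were at -0.02, 0.12 and -0.15. The median over members was -0.04 in 143B, with -0.02 for all genes.

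Whether the dye effect differs between the lines was tested directly as the 143B effect minus the MNNG effect. No carrier passed (0 of 40, with 0.00694% of all genes called), and 1 of 40 had an unadjusted p under 0.05, beside 1449 of 14418 genes. That was SLC25A15, at 0.49 ± 0.19 with an interval of 0.08 to 0.90 (limma adjusted p = 0.467). SLC25A39 followed at 0.46 ± 0.22 and SLC25A13 at 0.40 ± 0.21, with an interval of -0.05 to 0.84. The interval for SLC25A13 holds both 0 and a difference as large as its whole MNNG effect.

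**Figure D3:**
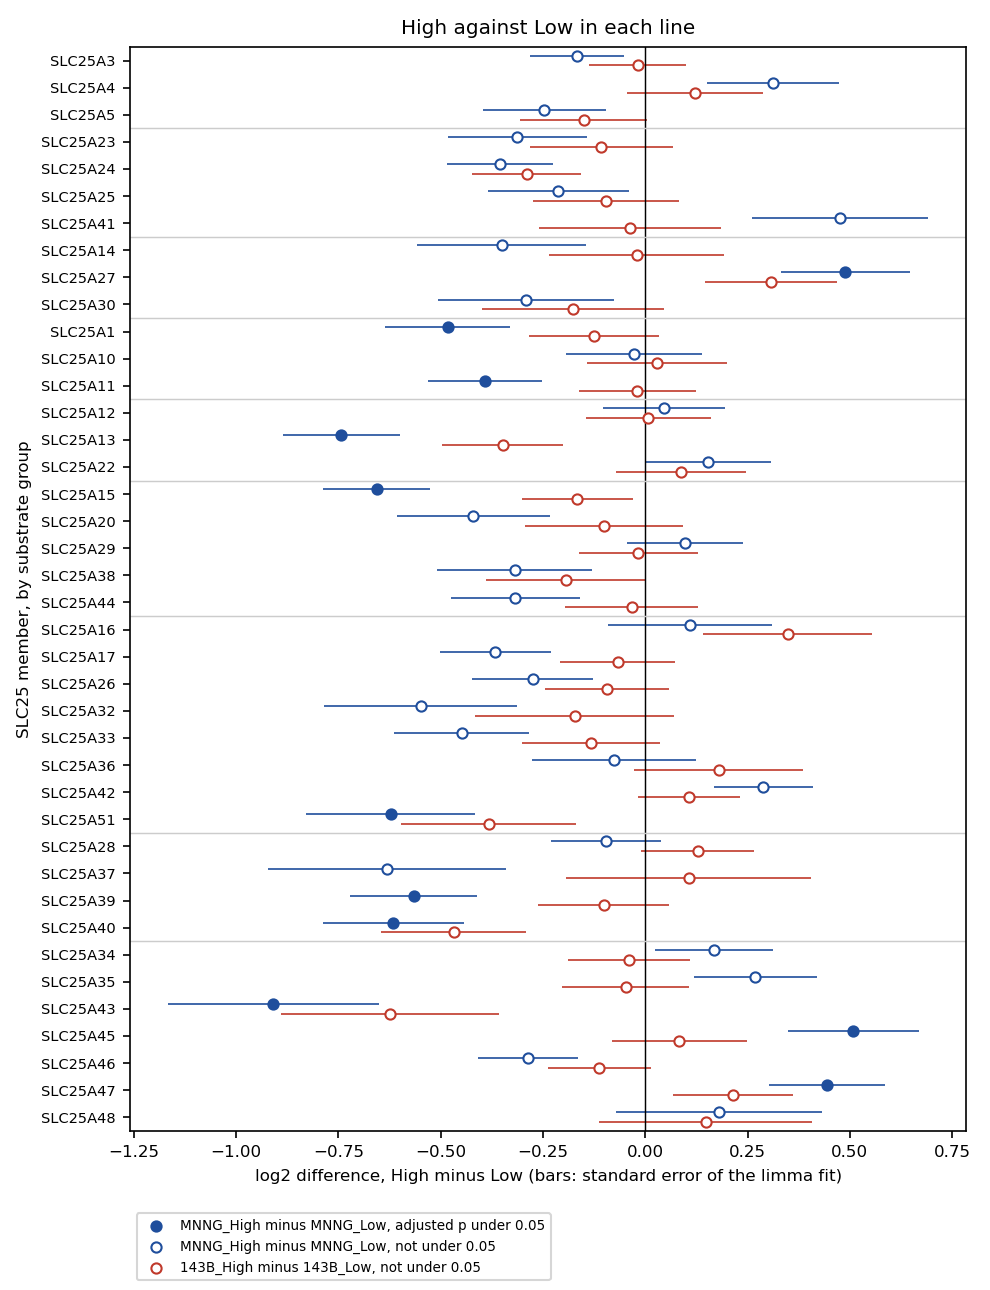
Log2 difference of High minus Low for the 40 tested carriers in MNNG (blue) and 143B (red), with bars for the limma standard error and filled points at adjusted p under 0.05. Most points lie below 0 in MNNG and nearer 0 in 143B, and SLC25A43, SLC25A40 and SLC25A51 lie farthest below 0 in 143B.

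The lines themselves were then compared within each fraction. SLC25A46 and SLC25A44 were lower in 143B than in MNNG in both Low and High cells, and SLC25A12 was higher in both. These are the 3 members called with the same sign in both fractions, of 14 called in either, and none was called with opposite signs. SLC25A46 is an outer membrane protein of mitochondrial fusion and fission whose loss causes an optic atrophy and neuropathy, and SLC25A44 admits branched-chain amino acids to mitochondria. In all, 2 members were called higher and 5 lower in 143B_Low against MNNG_Low, beside 14.4% and 14.5% of all genes, and 6 higher and 4 lower in 143B_High against MNNG_High, beside 21.4% and 14.7%. At 17.5% and 25% of the members the carriers were called no more often than all genes, at 28.8% and 36.1%.

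SLC25A46 had 9.41, 9.27, 9.21, 9.35 and 9.3 in 143B_Low against 10.36, 9.98, 10.24 and 9.89 in MNNG_Low. In the High cells it had 9.2, 9.19 and 9.2 in 143B_High against 9.98, 9.85, 9.7 and 9.79 in MNNG_High. No 143B array reached any MNNG array of the bone tumors. The differences were -0.81 ± 0.12 in Low cells and -0.63 ± 0.13 in High cells (limma adjusted p = 2.89e-05 and 0.00126), 1.75-fold and 1.55-fold lower, and both probe sets agreed in sign.

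SLC25A44 had 7.46, 7.69, 7.22, 7.6 and 7.62 in 143B_Low against 8.33, 8.39, 8.58 and 8.49 in MNNG_Low. It had 7.34, 7.59 and 7.53 in 143B_High against 8, 8.2, 7.74 and 8.58 in MNNG_High. The 143B arrays again lay under all MNNG arrays, with the MNNG_High arrays more spread. The differences were -0.93 ± 0.15 and -0.64 ± 0.17 (limma adjusted p = 9.88e-05 and 0.00712), with both probe sets lower in each.

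SLC25A12 had 7.73, 7.53, 7.67, 7.72 and 7.19 in 143B_Low against 7.06, 6.85, 7.22 and 6.9 in MNNG_Low, where 143B-1255 Low overlapped. It had 7.82, 7.43 and 7.48 in 143B_High against 6.92, 7.07, 7.15 and 7.07 in MNNG_High with no overlap. It was 1.47-fold higher in 143B_Low and 1.44-fold higher in 143B_High (0.56 ± 0.14 and 0.52 ± 0.16, limma adjusted p = 0.00532 and 0.0181). The second probe set was at 0.11 in Low and 0.68 in High cells, and the High call was lost without 143B-1253 High (0.40, adjusted p = 0.100) and after a second quantile normalization (0.29, adjusted p = 0.224). SLC25A46 and SLC25A44 were called in both fractions without any 1 array, at -0.88 to -0.73 and -0.97 to -0.86 in Low cells and at -0.68 to -0.58 and -0.78 to -0.49 in High cells.

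Upstream sequence of the 3 carriers called in both fractions and of SLC25A13 is shown so that shared letters can be read beside these differences. RefSeq's GRCh38.p14 table holds a window for 38 of the 45 members. The 250 bases before the annotated start are printed 5' to 3' on the gene's strand. They lie at chr5:110738757-110739006 (+) for SLC25A46, chr1:156193854-156194103 (+) for SLC25A44, chr2:171894245-171894494 (-) for SLC25A12 and chr7:96322099-96322348 (-) for SLC25A13. Capitals mark CCGGAA, the core bound by ETS factors such as GABP, a known regulator of nuclear genes for mitochondria, and the E-box CACGTG, both searched on either strand.
SLC25A46: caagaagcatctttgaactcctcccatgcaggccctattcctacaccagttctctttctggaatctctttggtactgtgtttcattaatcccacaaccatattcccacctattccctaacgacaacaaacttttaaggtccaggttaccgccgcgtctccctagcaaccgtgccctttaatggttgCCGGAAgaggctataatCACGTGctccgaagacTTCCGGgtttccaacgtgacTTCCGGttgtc
SLC25A44: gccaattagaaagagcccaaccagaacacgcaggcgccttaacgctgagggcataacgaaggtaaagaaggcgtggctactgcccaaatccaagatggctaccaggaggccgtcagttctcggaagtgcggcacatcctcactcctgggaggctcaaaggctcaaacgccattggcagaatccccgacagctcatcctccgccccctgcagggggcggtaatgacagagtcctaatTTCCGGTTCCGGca
SLC25A12: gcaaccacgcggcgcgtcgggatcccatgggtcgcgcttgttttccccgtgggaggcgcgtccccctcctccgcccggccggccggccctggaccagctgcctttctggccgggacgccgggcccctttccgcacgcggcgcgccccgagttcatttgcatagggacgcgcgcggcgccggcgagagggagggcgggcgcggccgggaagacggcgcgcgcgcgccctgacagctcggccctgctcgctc
SLC25A13: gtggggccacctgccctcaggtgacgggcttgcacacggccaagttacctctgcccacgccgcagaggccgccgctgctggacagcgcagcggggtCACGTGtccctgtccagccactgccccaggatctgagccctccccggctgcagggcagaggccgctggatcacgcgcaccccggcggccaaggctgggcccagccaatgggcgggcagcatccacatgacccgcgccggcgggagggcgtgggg
SLC25A46 holds 3 matches to CCGGAA and 1 to CACGTG, SLC25A44 holds 2 matches to CCGGAA that abut each other, SLC25A13 holds 1 CACGTG, and SLC25A12 holds neither. CCGGAA was present in such a window of 15 of 38 members, 39.5%, against 27.3% of the tested genes with a window and 17.2% of all 27305 genes with one. CACGTG was present in 8 members, 21.1%, against 10.8% of tested genes and 7.73% of all genes. CCAAT was present in 50% of the members and 40.6% of tested genes, and TATAAA in 7.89% and 8.64%. These are matches of letters, not binding sites. The member shares are drawn from all 45 members, tested or not, so their base differs from that of the tested genes.

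In Low cells 4 further carriers were called between the lines. SLC25A13 was lower in 143B_Low (-0.58 ± 0.14, limma adjusted p = 0.00288), from the values given above, with all 3 probe sets lower, and was called without any 1 array. In High cells it was at -0.19 ± 0.15 and did not pass. SLC25A25, a calcium-regulated ATP-Mg/phosphate carrier, had 7, 6.94, 6.94, 6.95 and 7.17 in 143B_Low against 7.39, 7.24, 7.93 and 7.74 in MNNG_Low with no overlap (-0.58 ± 0.16, adjusted p = 0.0124). Without MNNG-1233 Low it was at -0.46 (adjusted p = 0.0598). SLC25A39 was at -0.45 ± 0.15 and SLC25A45 at 0.43 ± 0.15 (adjusted p = 0.0266 and 0.0397). SLC25A39 was lost without MNNG-1231 Low or MNNG-1232 Low or 143B-1251 Low, 143B-1252 Low or 143B-1253 Low (-0.45 to -0.39, adjusted p = 0.0563 to 0.0925). SLC25A45 was lost without MNNG-1231 Low, MNNG-1232 Low or MNNG-1233 Low or 143B-1251 Low, 143B-1252 Low, 143B-1253 Low or 143B-1255 Low (0.38 to 0.45, adjusted p = 0.0523 to 0.103). The GAPDH 3' minus 5' signal was 0.43 to 0.85 in 143B_Low and 0.34 to 0.41 in MNNG_Low. With it as a covariate SLC25A25 was at -0.39 and SLC25A39 at -0.30 (adjusted p = 0.130 and 0.204), and neither was called.

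In High cells 7 further carriers were called. SLC25A36, a pyrimidine nucleotide carrier, had 10.97, 11.18 and 11.32 in 143B_High against 10.41, 10.66, 10.2 and 10.67 in MNNG_High, and all 5 of its probe sets were higher (0.67 ± 0.22, limma adjusted p = 0.0221). SLC25A38 had 9.25, 9.38 and 9.33 against 8.54, 8.93, 8.42 and 9.08 (0.58 ± 0.20, adjusted p = 0.0351). Neither overlapped, and in Low cells both were also higher without passing, at 0.42 and 0.45. SLC25A1 (0.53 ± 0.17), SLC25A40 (0.50 ± 0.19) and SLC25A15 (0.39 ± 0.14) were higher in 143B_High as well. In Low cells these 3 were at 0.17, 0.35 and -0.10. SLC25A47 (-0.44 ± 0.15) and SLC25A42, a coenzyme A carrier (-0.42 ± 0.13), were lower, SLC25A47 with both means under 5.36. The MNNG_High arrays enter both this comparison and that of MNNG_High with MNNG_Low, so the 2 sets of values are not independent.

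Most of these High calls were lost without 1 array. Leaving out 143B-1253 High, either pool, MNNG-1231 High or MNNG-1233 High gave 3 to 6 called members, beside 3465 to 4242 of 14418 genes. SLC25A36, SLC25A38, SLC25A1, SLC25A40, SLC25A15, SLC25A42 and SLC25A47 were each lost in at least 2 of these fits (adjusted p = 0.0521 to 0.207). A second quantile normalization, which moved the median of all genes to -0.11 from 0.01, gave 0 higher and 4 lower, and median centring 8 higher and 3 lower. Of all 14300 genes, 3889 and 5005 were called there. Without both MNNG-1231 High and MNNG-1233 High it was 0 and 3, beside 3305 of 14418 genes, with SLC25A46 at -0.62 and SLC25A44 at -0.91. The GAPDH 3' minus 5' signal was 0.58 to 1.04 in 143B_High and 0.5 to 0.75 in MNNG_High, and with it as a covariate SLC25A38, SLC25A40 and SLC25A47 were not called (adjusted p = 0.0768, 0.0679 and 0.0561). The mean of 8 macrophage and myeloid markers was 5.36 to 5.72 in 143B_High against 5.9 to 6.4 in MNNG_High, with 4 and 6 at or above 5.36. Of the 6 tested, 3 were called lower in 143B_High, AIF1 (-1.28), CSF1R (-0.72) and FCER1G (-0.62), and their part in the carrier differences was not tested. With the lung arrays left out, 7 carriers were higher and 6 lower in Low cells and 9 and 5 in High cells. Of all 14418 genes, 5361 and 6807 were called in these fits.

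The tested ADP/ATP and phosphate carriers did not pass between the lines in the main fit. SLC25A5 was at 0.29 ± 0.14 in Low and 0.38 ± 0.16 in High cells, SLC25A4 at 0.38 ± 0.15 and 0.19, and SLC25A3 at -0.15 ± 0.11 and 0.00. The 143B_High arrays had 12.94, 12.99 and 12.97 for SLC25A5 and MNNG_High 12.7, 12.63, 12.37 and 12.64, with no overlap (limma adjusted p = 0.0723). With the GAPDH signal as a covariate SLC25A5 was called in High cells (0.46, adjusted p = 0.0345) and SLC25A4 in Low cells (0.58, adjusted p = 0.0144). The same calls were made with the lung arrays left out (limma adjusted p = 0.0250 and 0.0263) and with array weights (0.00939 and 0.0115). SLC25A5 was also called in High cells after median centring (0.45, adjusted p = 0.0408) and in Low cells with array weights (0.23, 0.0366). SLC25A4 was also called in Low cells with only the groups compared (0.38, adjusted p = 0.0337). Of the uncoupling protein-like carriers, SLC25A30 was at -0.46 ± 0.20 in Low cells and SLC25A27 at -0.34 ± 0.17 in High cells, and neither passed.

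**Figure D4:**
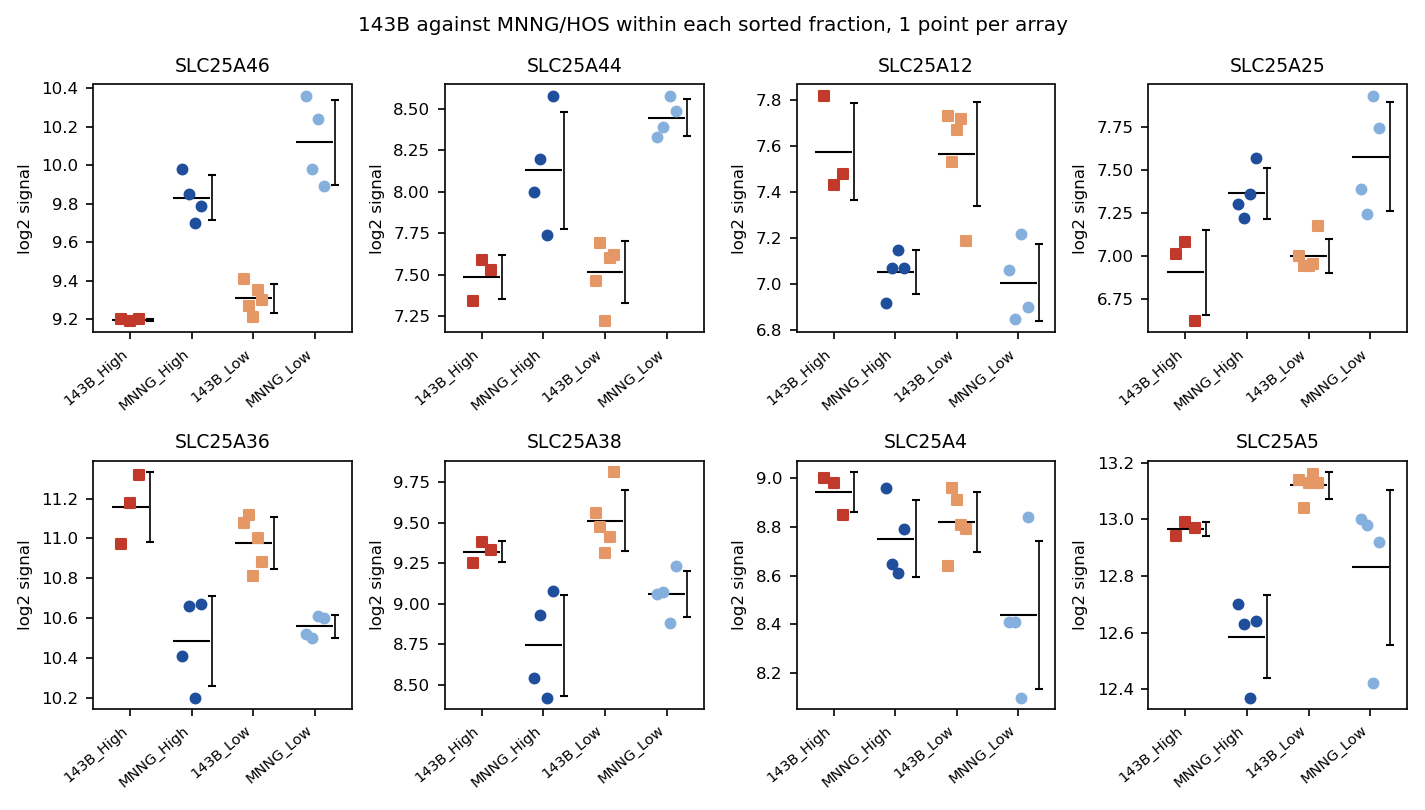
Log2 signal of 8 carriers in 143B (squares, left of each pair) and MNNG (circles), with 1 point per array, the group mean as a line and the SD as a bar. SLC25A46 and SLC25A44 lie lower in 143B in both fractions with no overlap, SLC25A12 lies higher, and SLC25A4 and SLC25A5 did not pass in the main fit.

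Lung metastases of MNNG were compared with bone tumor cells of the same line, where 35.1% of all genes were called higher and 51.9% lower against MNNG_Low, and 34.8% and 47.6% against MNNG_High. Against MNNG_Low 22 carriers were lower and 10 higher, and against MNNG_High 22 were lower and 12 higher. These are 80% and 85% of the members, beside 87% and 82.4% of all genes, so the carriers were called about as often as the rest of the array. The median over members was -1.08 against MNNG_Low and -0.83 against MNNG_High, with -0.64 and -0.37 over all genes. Both comparisons share the lung arrays. In the values, 22 carriers were called lower and 9 higher against both.

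SLC25A32, SLC25A46 and SLC25A36 showed the largest decreases against MNNG_Low. SLC25A32, the folate and FAD carrier, had 4.57 and 3.38 in MNNG_Lung against 10.03, 10.19, 10.25 and 10.3 in MNNG_Low. SLC25A46 had 5.02 and 4.77 in MNNG_Lung against 10.36, 9.98, 10.24 and 9.89 in MNNG_Low. The differences were -6.21 ± 0.29 and -5.22 ± 0.15 (limma adjusted p = 6.18e-13 and 5.22e-15). SLC25A36 was at -5.11 ± 0.24 and SLC25A33, the other pyrimidine nucleotide carrier, at -3.46 ± 0.20, and all 5 probe sets of SLC25A36 were lower. Of the 8 cofactor and nucleotide carriers 6 were lower and 1, SLC25A42, was higher (0.98 ± 0.15).

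The amino acid and ATP carriers split. SLC25A13 had 5.16 and 4.99 in MNNG_Lung (-4.91 ± 0.18 against MNNG_Low), and 2 of its 3 probe sets were lower while the other, a dim one, was at 0.53. SLC25A12 was at -0.62 ± 0.18 and SLC25A22 at 0.94 ± 0.19. SLC25A5 had 9.91 and 9.25 in MNNG_Lung against 13, 12.98, 12.42 and 12.92 in MNNG_Low, -3.25 ± 0.18, and SLC25A3 had 12.3 and 11.75 against 13.51, 13.41, 13.41 and 13.43, -1.42 ± 0.14. After a second quantile normalization SLC25A3 was at -0.12 and was not called (adjusted p = 0.366). SLC25A4 had 9.48 and 8.83 in MNNG_Lung against 8.41, 8.41, 8.1 and 8.84 in MNNG_Low, and was called higher (0.72 ± 0.20, limma adjusted p = 0.0024). The groups overlapped, and the call was lost without lung array 1233 (0.39, adjusted p = 0.0965). It was also lost after median centring (0.34, limma adjusted p = 0.114) and with array weights (0.69, 0.171). SLC25A3 against MNNG_High was at -1.25 ± 0.14, but at 0.01 after a second quantile normalization.

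SLC25A24, the ATP-Mg/phosphate carrier, was at -4.29 ± 0.16, with a dim second probe set at 1.65. SLC25A43 was at -4.93 ± 0.32, SLC25A37 at -4.15 ± 0.36 with 7 of 10 probe sets lower, SLC25A40 at -2.80 ± 0.21 and SLC25A14, an uncoupling protein-like carrier, at -2.47 ± 0.25. SLC25A15 and SLC25A44 were both at -2.39. SLC25A11, the 2-oxoglutarate/malate carrier, was at -1.98 ± 0.17, while SLC25A1 and SLC25A10 did not pass against MNNG_Low (0.36 and 0.25). None of the 22 decreases started from an MNNG_Low mean under 5.36, but 8 ended at a lung mean under it, so their sizes are uncertain. Of the 32 members called higher or lower against MNNG_Low, 22 had several probe sets, and these all agreed in sign for 13. Second probe sets of SLC25A14, SLC25A15 and SLC25A40 were at 0.00, 0.05 and 0.64. SLC25A30, another uncoupling protein-like carrier, was at -1.76 ± 0.26, while its 3 dimmer probe sets lay between 1.08 and 1.54.

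The carriers that were higher on the lung arrays were mostly dim in bone tumors. SLC25A45 had 7.34 and 7.07 in MNNG_Lung against 5.12, 5.08, 5.1 and 5.39 in MNNG_Low (2.04 ± 0.20, limma adjusted p = 1.49e-08). SLC25A48, SLC25A35, SLC25A41, SLC25A27, SLC25A47 and SLC25A34 were at 1.77, 1.55, 1.46, 1.38, 1.21 and 1.10, with a second probe set of SLC25A27 at -1.64. Of the 10 called higher, 5 had an MNNG_Low mean under 5.36. Among them SLC25A48, SLC25A41 and SLC25A47 passed the filter only with the help of the lung arrays, so their place among the called is tied to that choice. The 2 lung arrays differed from each other by a median of 0.55 over the members and by up to 1.57, for SLC25A48. SLC25A20, called higher against MNNG_High (0.51 ± 0.23, adjusted p = 0.0481), had 6.79 and 7.99 in MNNG_Lung and was at -0.09 without Mix (0.65). Without MNNG-1231 High or MNNG-1233 High it was at 0.47 and 0.41 (adjusted p = 0.0876 and 0.112). SLC25A12 and SLC25A25 were called lower, and without Mix they were at -0.40 and -0.49 against MNNG_Low (adjusted p = 0.0839 and 0.0574). Against MNNG_High, without Mix they were at -0.45 and -0.28 (adjusted p = 0.0593 and 0.273), and SLC25A39, higher by 0.70, was at 0.32 without lung array 1233 (0.127).

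Markers moved with the lung arrays too. The mean of the 8 osteosarcoma and osteoblast markers was 7.04 to 8.27 on the lung arrays against 9.87 to 10.15 in MNNG_Low, and 4 of the 7 tested were called lower. RUNX2 averaged 6.68 on the lung arrays against 10.5 in MNNG_Low, CD44 5.49 against 10.98, VIM 14.28 against 14.55, COL1A2 8.44 against 8.56 and ALPL, which was not tested, 6.04 against 4.06. Macrophage and myeloid markers had a mean of 7.1 to 7.33 on the lung arrays against 5.17 to 5.38 in MNNG_Low, with 8 of 8 at or above 5.36, and lung epithelium markers 7.15 to 7.53 against 5.68 to 5.82, with 5 of 5. Erythroid markers were at 7.23 to 7.64 against 5.63 to 5.81, with 4 of 4, and endothelial markers at 5.71 to 6.32 against 4.43 to 4.7, with 3 of 5. Liver markers were at 6.29 to 6.89 against 5.51 to 5.85, with 3 of 4. Skeletal muscle markers were at 5.44 to 5.91 against 4.62 to 4.77, with 4 of 7. Within these lists SERPINA1 (7.17 against 8.4) and ACTA1 (6.03 against 6.28) were lower on the lung arrays. The GAPDH 3' minus 5' signal was 0.45 and 0.94. The part of other cells and of the narrower signal range of these arrays in the carrier differences was not tested. A second quantile normalization, with a median of all genes of -0.16 against MNNG_Low and -0.08 against MNNG_High, gave 16 higher and 20 lower in both comparisons. Median centring gave 8 and 24 against MNNG_Low and 10 and 23 against MNNG_High. Of all 14300 genes, the quantile normalization called 12347 against MNNG_Low and 12054 against MNNG_High, and median centring 12390 and 11587.

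**Figure D5:**
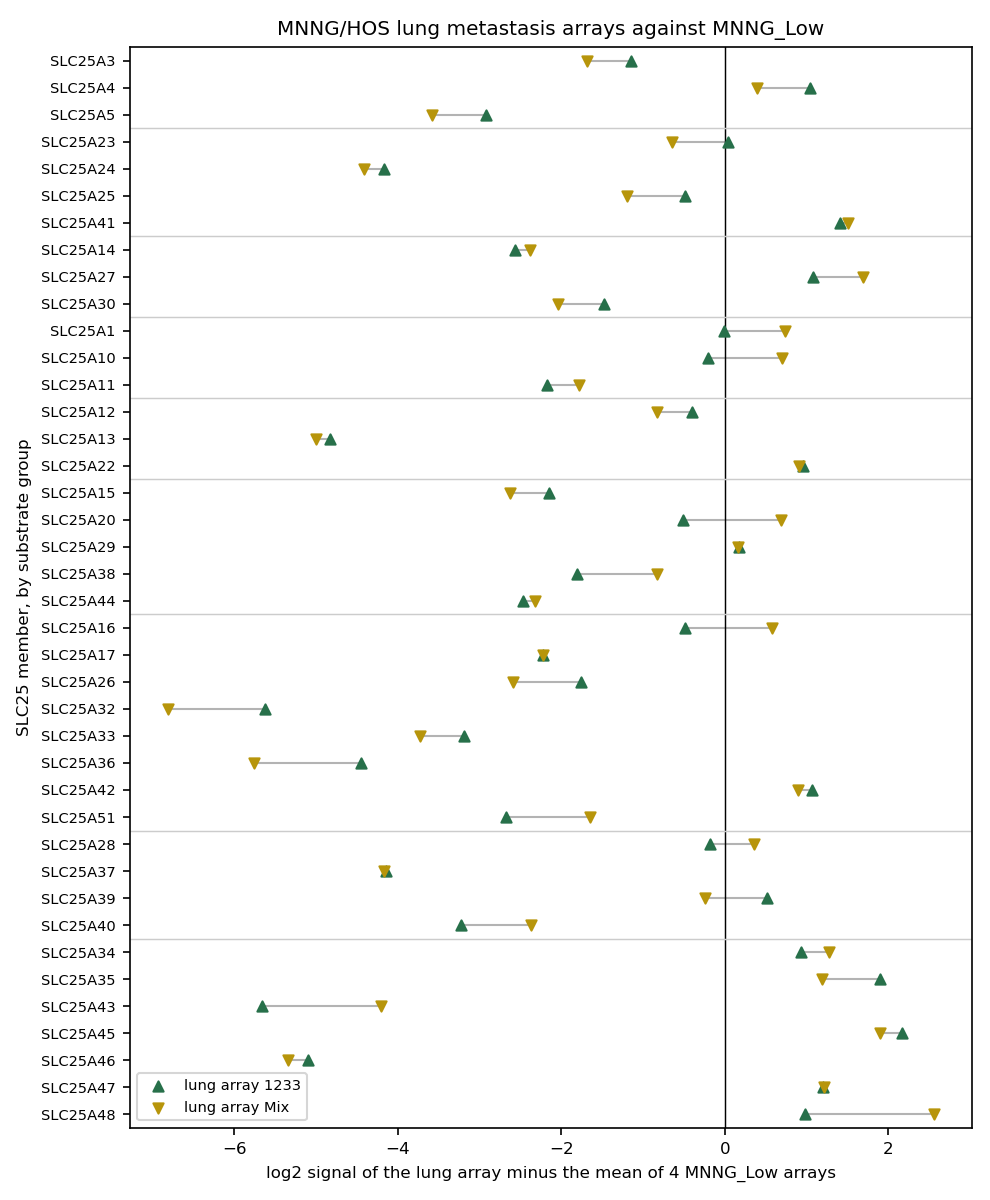
Log2 signal of each lung array minus the mean of the 4 MNNG_Low arrays for the 40 tested carriers, with the arrays labelled 1233 and Mix as separate points joined by a line. SLC25A32, SLC25A46, SLC25A36, SLC25A43 and SLC25A13 are among the carriers below -4 on both arrays, and SLC25A45, SLC25A35, SLC25A41 and SLC25A48 lie above 0 on both.

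Genes that serve the carriers were followed beside them. Of 13 genes for carrier import, 3 fell and 0 rose in MNNG_High against MNNG_Low, led by TOMM22, a receptor of the outer membrane translocase (-0.68 ± 0.12, limma adjusted p = 0.00357), with TIMM29 (-0.58) and AGK (-0.48) of the TIM22 complex. In 143B none was called between the fractions. Between the lines 3 were higher in Low cells and 5 in High cells, beside 14.4% and 21.4% of all genes, with TIMM10B, a small chaperone of the intermembrane space, at 1.55 ± 0.16 and 1.97 ± 0.18. TOMM70, the receptor for carrier precursors, was at 0.43 and 0.86. All 13 were lower on the lung arrays against MNNG_Low, where 51.9% of all genes were, with a median of -2.63 against -0.64 and TOMM20 at -6.73 ± 0.43.

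Of 17 tested mitochondrial transporters outside the SLC25A names, 4 fell and 0 rose in MNNG_High, including ABCB10, an inner membrane exporter of erythroid biology (-0.90 ± 0.17), SFXN4 (-0.66) and MPC2, a subunit of the pyruvate carrier (-0.47). UCP2, a carrier of the same fold named outside the series, was higher in 143B by 1.67 ± 0.20 in Low and 2.01 ± 0.23 in High cells (limma adjusted p = 3.69e-06 and 2.64e-06). Of 20 enzymes that use carried substrates, 5 fell and 0 rose in MNNG_High, among them NADK2 (-0.68 ± 0.20), which phosphorylates mitochondrial NAD, and the heme enzymes FECH (-0.46) and ALAS1 (-0.55). ARG2, the mitochondrial arginase that makes ornithine, was higher in 143B by 1.61 ± 0.18 and 1.87 ± 0.21, and IDH2 by 0.75 and 0.87. Of 10 regulators of mitochondrial biogenesis, 1 fell in MNNG_High, the transcription factor NRF1 (-0.90 ± 0.23, adjusted p = 0.013), and MYC and the transcription factor TFB2M were lower in 143B_Low (-1.03 and -0.78). The shares of these 4 lists called in MNNG_High were 23.1%, 23.5%, 25% and 10%, beside 26.1% of all genes.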

How the data were processed

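Affymetrix 3' expression arrays of 18 RNA samples gave 54675 probe sets, of which 41097 are annotated to 1 gene, 1801 to several and 11777 to none. The deposited values are log2 signals. Per the submitters' processing notes the authors used RMA, whose version the sources used here do not give. The number of arrays limits the precision. Members and gene lists were chosen with earlier results of these data known. Genes named were, in each comparison, the called members, up to 8 higher and 8 lower by size, and the member of smallest p of each role group. The tested ADP/ATP and phosphate carriers were named everywhere, and from each related list up to 3 of smallest p. Other members are named for their role or probe sets, after their values were seen.

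Each gene took its probe set of highest mean over 18 arrays among those annotated to it alone. Of 19775 genes, 14418 passed a log2 signal of 5.36, the table median, on at least 3 arrays. All 5 groups entered 1 limma fit (version 3.58.1, R 4.3.3) with 13 residual degrees of freedom, eBayes and Benjamini-Hochberg adjustment over all genes tested, and a call is an adjusted p under 0.05. Intervals are at 95%. The procedure was tested on simulated data. Promoter windows came from RefSeq's GRCh38.p14 table.

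High and Low cells of 1 number come from the same tumor by their titles. Their deviations from the group means correlated over genes at 0.494, 0.37, 0.299 and 0.579 in MNNG and at 0.542 for 143B-1253, while the pools gave -0.192 and 0.529, and 0.243 and 0.0626. Alternatives were the filter, scaling, probe set choice, lung arrays left out, array weights, GAPDH 3' to 5' signal, date tag, groups fitted alone, tumor as a block and each array left out. Fitting without MNNG-1231 High and MNNG-1233 High was chosen after seeing the data.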

Additional observations from a re-analysis of the deposited data

Results flagged for a closer look

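Among the tested carriers 120 groups of 4 or more arrays were examined for 1 array far from the others, and 11 were found. Chance flags about 1 in 20 groups. In MNNG_Low, 3 of them were of tumor MNNG-1233. SLC25A5 was at 12.42 there, with the other 3 arrays between 12.92 and 13, SLC25A14 at 7.80, with the others between 8.56 and 8.66, and SLC25A24 at 11.03, with the others between 10.73 and 10.76. The High array of this tumor was also the lowest of its group for SLC25A5, at 12.37 with the others at 12.63 to 12.7, and for SLC25A14, at 7.4 with the others at 8.2 to 8.41. MNNG-1235 Low was at 6.17 for SLC25A35, with the others at 6.28 to 6.30, and at 5.39 for SLC25A45, with the others at 5.08 to 5.12. MNNG-1231 Low was at 13.51 for SLC25A3, with the others at 13.41 to 13.43.

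In 143B_Low, tumor 143B-1255 was at 7.17 for SLC25A25, with the others at 6.94 to 7, and at 10.60 for SLC25A33, with the others at 10.06 to 10.20. 143B-1252 Low was at 13.04 for SLC25A5, with the others at 13.13 to 13.16, and 143B-1253 Low was at 7.98 for SLC25A14, with the others at 8.29 to 8.35. The remaining one was MNNG-1233 High at 7.86 for SLC25A26, the S-adenosylmethionine carrier, with the others at 7.99 to 8.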

How the results depend on the processing

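Counts of called carriers are followed in parentheses by those over all genes, of 14300 after a second quantile normalization and 14418 otherwise. The count of MNNG_High against MNNG_Low moved most, from 11 (3761) to 2 (1033) after a second quantile normalization and 19 (6407) without the lung arrays. It was 6 (1547) with the GAPDH 3' to 5' signal as a covariate and 0 (3) in a fit that included the date tag. With only the groups compared it was 7 (2317). Without MNNG-1231 High and MNNG-1233 High, a fit chosen after seeing the data, it was 1 (56). With 1 array left out it lay between 3 and 17 (1376 to 5939). In the paired analysis, with the replicate block and without the lung arrays, it was 24 (7849). The same block gave 0 (8) in 143B_High against 143B_Low and 0 (3) for the difference of effects. With array weights 143B_High against 143B_Low gave 2 (201), and without any 1 array 0 (0 to 2). The count of 143B_Low against MNNG_Low was 13 (5361) without the lung arrays, 19 (7024) with array weights and 18 (6529) with only the groups compared. With 1 array left out it was 5 to 8 (3445 to 3768). The count of 143B_High against MNNG_High was 4 (3889) after a second quantile normalization, 17 (7686) with array weights and 6 (4110) with only the groups compared. Without MNNG-1231 High and MNNG-1233 High it was 3 (3305), and with 1 array left out 3 to 11 (3465 to 6297). With 1 array left out, the lung counts lay between 32 and 36 (12274 to 12430) against MNNG_Low. Against MNNG_High they lay between 33 and 35 (11555 to 11981). Array weights gave fewer lung calls, 28 (10054) against MNNG_Low and 25 (8930) against MNNG_High, the latter with 5 higher and 20 lower. SLC25A1, SLC25A22, SLC25A34 and SLC25A41 were then not called against MNNG_High (limma adjusted p = 0.0535 to 0.109). SLC25A3 on the lung arrays against MNNG_High turned from -1.25 to 0.0068 after a second quantile normalization, and against MNNG_Low from -1.42 to -0.12, no longer called. The cause of these moves was not tested. The spread within groups limits small differences, with a median SD over members of 0.24 in MNNG_High, 0.14 in MNNG_Low and 0.39 between the 2 lung arrays, and carriers near or under 5.36 have uncertain sizes.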
